A study of Mus musculus with 12 samples.

Results

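Hepatic transcripts of apolipoproteins and of the assembly factor Mttp were examined in livers in which Nrf2 signalling had been activated genetically, by a drug, or by both. The set comprised 10 genes, Apoa1, Apoa2, Apoa4, Apoa5, Apob, Apoc1, Apoc2, Apoc3, Apoe and Mttp, taken as every probe set whose annotation names 1 of these genes. They are 10 of 18193 genes that the array measures with a dedicated probe set, and 16 of the 45101 probe sets of the array. Apoa1 had 4 probe sets, Apoa4, Apob and Mttp had 2 each, and the other 6 genes had 1. All 10 cleared the low-signal filter and so were among the 8338 genes tested.

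Total liver RNA of 12 male mice aged 9 weeks, on a C57BL/6J background, was hybridised to 1 Affymetrix mouse array per liver, in 4 groups of 3 mice. CKO mice carried Albumin-Cre:Keap1(flox/-), that is, Cre recombinase driven in hepatocytes by the Albumin promoter with 1 floxed and 1 null Keap1 allele. WT mice were genetic controls with Alb-Cre:Keap1(flox/+), so every group expressed Cre and every group carried a floxed allele, and the controls can lose that allele in hepatocytes while keeping their wild-type one. Each genotype was given by gavage either 30 umol/kg of CDDO-Im, an oleanane triterpenoid that activates Nrf2, or its vehicle of DMSO, Cremophor-EL and PBS, and livers were collected 6 h afterwards. The null allele of CKO mice is carried outside hepatocytes as well, and the genetic change was lasting whereas the drug had acted for 6 h.

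Lipoproteins carry cholesterol and triglyceride through plasma in particles wrapped by apolipoproteins, most of which the liver secretes. Apob is the structural protein of very low density lipoprotein (VLDL), and the microsomal triglyceride transfer protein, encoded by Mttp, loads lipid onto it in the endoplasmic reticulum. Apoa1 and Apoa2 are the main proteins of high density lipoprotein (HDL), while the smaller exchangeable proteins tune lipoprotein lipase and receptor uptake. Keap1 is the adaptor that marks Nrf2, a transcription factor of antioxidant genes, for degradation.

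Between livers, signals of 5 of the 10 genes were close to constant, those of Apoa1, Apoa2, Apoc1, Apoc3 and Apoe. Each spanned between 0.16 and 0.24 log2 units over all 12 arrays. Such a small spread was common to the brightest genes, and how far differences are compressed at that brightness was not tested. None of the 10 was called in any of the 4 comparisons that differ in genotype alone or in treatment alone. Of all genes tested, 0% to 6.51% were called in them, so 0 of 10 is no result about these genes. The exception came between CKO vehicle and WT CDDO-Im livers, where 4.29% of all genes were called. Apoa5 was lower there in CKO vehicle livers by 0.80 log2 units, a call lost in 8 of 12 fits without 1 array. A second Mttp probe set was called as lower after CDDO-Im in WT livers (adjusted p = 0.0355, limma), where 3.88% of probe sets were called. Short of the threshold, the lowest adjusted p-values among the 10 genes were those of Apoa5, Mttp, Apoa1 and Apoa4 (0.0674 to 0.0887, limma). Apoa4 varied most between mice of 1 group, and its differences near 1 log2 unit did not pass.

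The genotype labels were checked on Keap1 and on Nqo1, a quinone reductase and classical Nrf2 target. 1 of the 2 Keap1 probe sets lay between 7.92 and 8.89 on the log2 scale in the 6 WT livers and between 2.74 and 3.31 in the 6 CKO livers, and the other lay between 6.58 and 8.08 and between 6.15 and 6.51. In WT livers Nqo1 signal was 6.22 ± 0.93 (SD, n = 3) under vehicle and 9.67 ± 0.16 under CDDO-Im, and in CKO livers it was 11.08 ± 0.07 and 10.85 ± 0.17. Of the hepatocyte markers, 9 of 9 on the array were above background, and their summed signal ranged from 18.8 to 18.9 in every group. Medians of the arrays lay between 2.32 and 2.34, and the lowest correlation between replicates was 0.996.

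Upstream sequences are shown for the 3 genes with the differences described at most length, Apoa5, Mttp and Apoa4. Each is the 250 bases before a RefSeq transcription start in build GRCm38.p6, printed 5′ to 3′ on the gene's strand, with any match to TATAAA in capitals. They cover chr9:46268358-46268607 on the plus strand for Apoa5, chr9:46240594-46240843 on the plus strand for Apoa4, and chr3:138143419-138143668 on the minus strand for Mttp.
Apoa5: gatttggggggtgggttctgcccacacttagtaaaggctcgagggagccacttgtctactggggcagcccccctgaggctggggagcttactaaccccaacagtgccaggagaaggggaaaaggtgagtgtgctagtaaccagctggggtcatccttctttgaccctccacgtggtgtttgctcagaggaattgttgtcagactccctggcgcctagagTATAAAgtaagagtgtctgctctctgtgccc
Apoa4: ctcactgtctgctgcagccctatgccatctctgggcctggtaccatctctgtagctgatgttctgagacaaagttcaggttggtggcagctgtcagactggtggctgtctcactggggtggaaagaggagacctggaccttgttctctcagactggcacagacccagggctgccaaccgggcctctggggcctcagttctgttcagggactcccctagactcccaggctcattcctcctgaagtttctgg
Mttp: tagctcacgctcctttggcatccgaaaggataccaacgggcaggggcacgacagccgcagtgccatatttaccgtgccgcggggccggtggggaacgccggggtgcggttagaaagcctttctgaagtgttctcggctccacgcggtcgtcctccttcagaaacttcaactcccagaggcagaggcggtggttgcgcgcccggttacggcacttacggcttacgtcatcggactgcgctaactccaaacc

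In RefSeq's gene order, Apoa1, Apoc3, Apoa4 and Apoa5 are neighbours on chromosome 9, and Apoe, Apoc1 and Apoc2 lie together on chromosome 7 with Apoc4. Apoa2 lies on chromosome 1, Apob on chromosome 12 and Mttp on chromosome 3. The table of RefSeq promoter windows, each with 250 bases before and 50 after a start, held 12 windows for 8 of the 10 genes, and Apoc1 and Apoc3 were not among them. The core of the antioxidant response element, to which Nrf2 binds, was searched as TGACNNNGC on both strands and was present in 0 of the 12 windows, against 12.39% of 32851 windows in the table. The HNF4 core CAAAGTCCA was present in 0 of 12, against 0.4749% of windows. TATAAA was present in 5 of 12 windows, against 13.62%, but 2 of the 5 are overlapping Apoa5 windows that hold the same match, and in the Apoa5 sequence above it occupies bases -31 to -26 from the start. These are matches of letters in short windows, and since only TATAAA matched, matches of different motifs do not overlap.

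**Figure D1:**
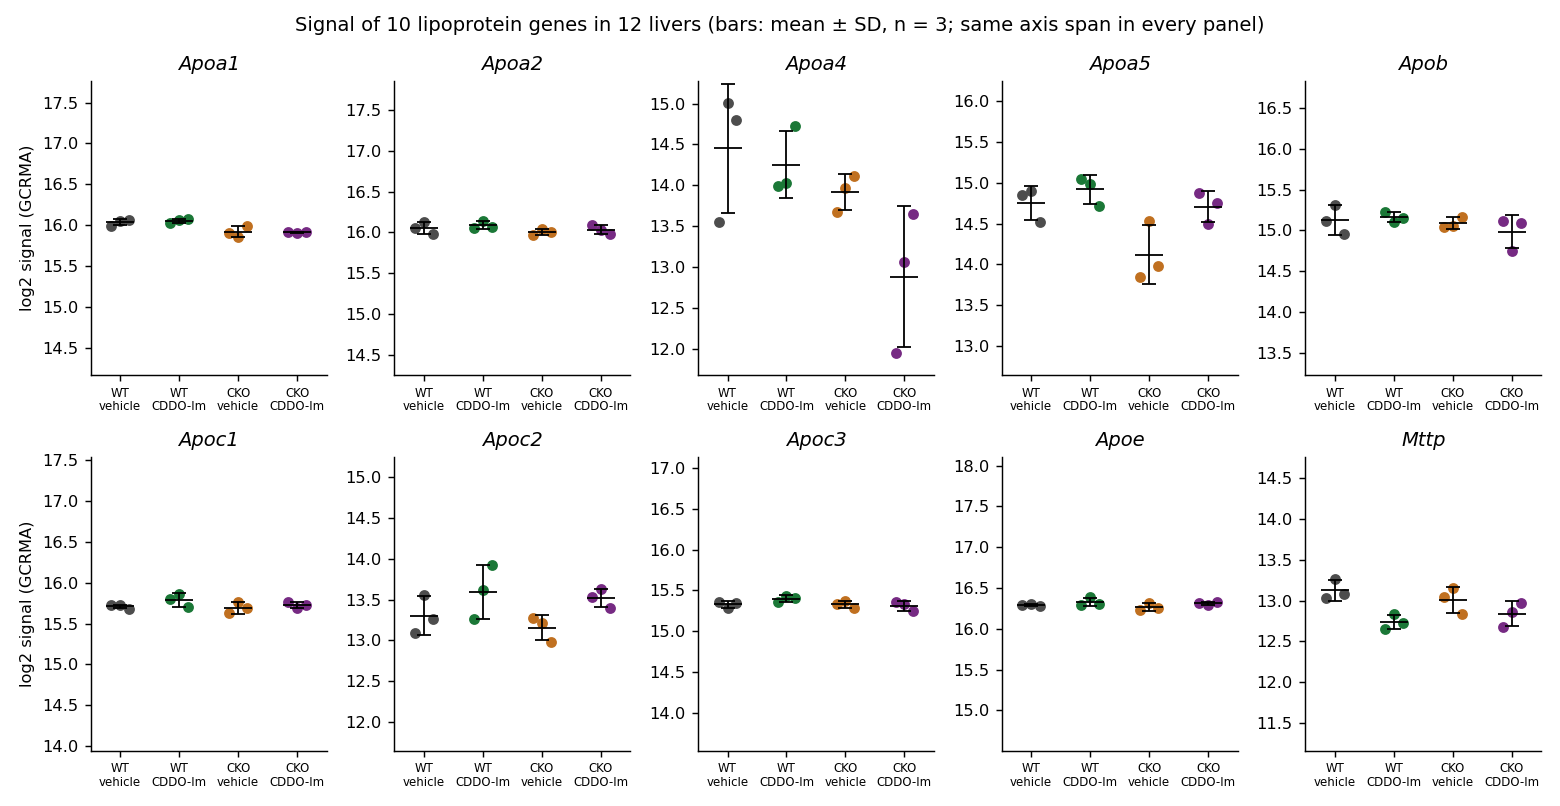
Log2 GCRMA signal (y axis) of each of the 10 genes in the 4 groups (x axis), with points for single livers and bars for mean ± SD (n = 3), over an equal axis span in every panel. Apoa4 spreads most within groups, Apoa5 is lowest in CKO vehicle livers, and Apoa1, Apoa2, Apoc1, Apoc3 and Apoe lie nearly flat.

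Apob signal was 15.11, 15.31 and 14.96 under vehicle and 15.22, 15.10 and 15.16 under CDDO-Im in WT livers. In CKO livers the same order gave 15.04, 15.06 and 15.17 and then 15.11, 14.75 and 15.10. The 4 groups overlapped, with 1 low CKO CDDO-Im liver. Mttp signal was 13.03, 13.27 and 13.08 under vehicle and 12.66, 12.83 and 12.73 under CDDO-Im in WT livers. In CKO livers the corresponding values were 13.04, 13.15 and 12.84 and then 12.68, 12.86 and 12.98. The 3 WT livers given CDDO-Im lay below the 3 WT livers given vehicle, whereas the CKO groups overlapped each other.

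For the HDL proteins, Apoa1 signal was 15.99, 16.05 and 16.06 under vehicle and 16.02, 16.07 and 16.07 under CDDO-Im in WT livers. CKO livers, in the same order of treatment, gave 15.91, 15.86 and 15.99 and then 15.91, 15.91 and 15.91. All but 1 of the CKO livers lay below all WT livers, and that liver, in the CKO vehicle group, was level with the lowest WT liver. Apoa2, the second HDL protein, ranged only from 15.97 to 16.14 over all 12 livers.

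Among the proteins that act on triglyceride clearance, Apoa5, which promotes lipolysis by lipoprotein lipase, had signals of 14.86, 14.90 and 14.52 under vehicle and 15.05, 14.98 and 14.72 under CDDO-Im in WT livers. In CKO livers it gave 13.84, 14.53 and 13.98 under vehicle and 14.88, 14.50 and 14.75 under the drug. A pair of CKO vehicle livers stood below all other livers, and the third lay within the range of the other groups. Apoc2, the cofactor that lipoprotein lipase needs, was 13.09, 13.56 and 13.27 under vehicle and 13.26, 13.61 and 13.92 under CDDO-Im in WT livers. For CKO livers the values were 13.28, 13.21 and 12.98 and then 13.53, 13.63 and 13.40. Apoc2 was higher in all CKO livers given CDDO-Im than in those given vehicle, while the WT groups overlapped. Apoc3, an inhibitor of the lipase and of remnant uptake, ranged from 15.24 to 15.43 over the 12 livers. Apoc1, which hinders uptake of remnants by receptors, ranged from 15.62 to 15.86, and Apoe, the ligand through which receptors take up remnants, from 16.23 to 16.39.

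Apoa4, a protein of chylomicrons and HDL that mouse liver makes beside the intestine, was the most variable of the set. Its signal was 13.55, 15.01 and 14.80 under vehicle and 13.99, 14.03 and 14.72 under CDDO-Im in WT livers. The CKO livers gave 13.67, 13.97 and 14.11 and then 11.94, 13.06 and 13.65. The first WT vehicle liver was lower than every CKO vehicle liver. By its brighter probe set, all CKO CDDO-Im livers were lower than all livers of the WT CDDO-Im and CKO vehicle groups. The pooled SD within groups was 0.631 log2 units for Apoa4, larger than that of 97.8% of the genes tested. Markers of small intestinal enterocytes were examined beside it. Of 9 on the array, Vil1, Alpi, Lct, Cdx1, Cdx2, Slc5a1 and Rbp2 were not above background, and Fabp2 and Anpep were. On the log2 scale the summed signal of the 9 ranged from 11.6 to 12.8 under vehicle and 11.6 to 12.03 under CDDO-Im in WT livers, and from 10.7 to 11.4 and 11.1 to 11.4 in CKO livers. Anpep, an aminopeptidase, fell by 1.06 ± 0.19 (SE) log2 units in CKO vehicle and by 0.82 ± 0.19 in WT CDDO-Im livers, each against WT vehicle (adjusted p = 0.0102 and 0.0435, limma). The part of Fabp2 and Anpep in the Apoa4 values was not tested.

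**Figure D2:**
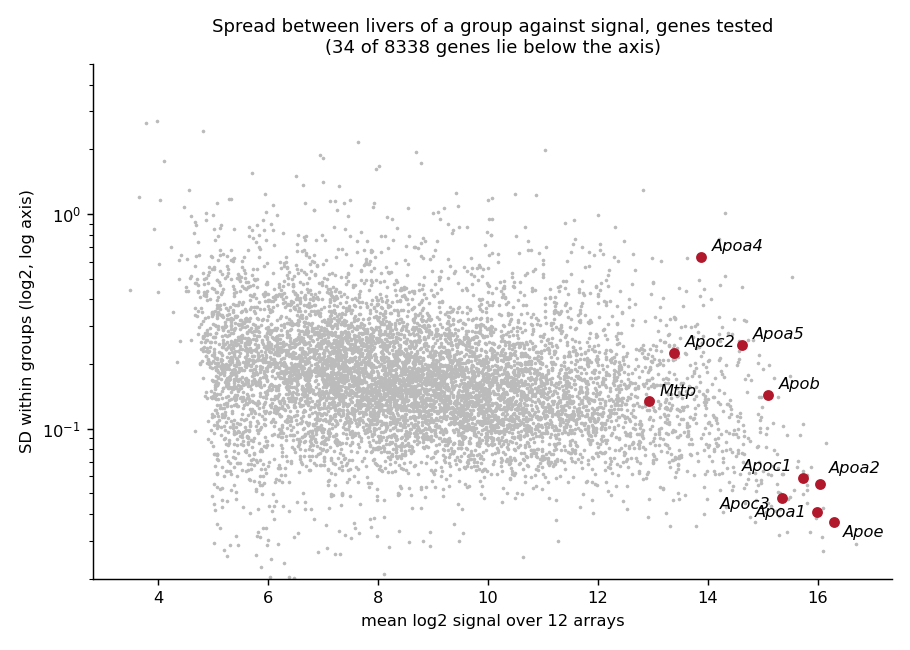
Pooled SD within groups (y axis, log2 units on a log axis) against mean log2 signal over 12 arrays (x axis) for the genes tested (grey) and the 10 lipoprotein genes (red). Apoa1, Apoa2, Apoc1, Apoc3 and Apoe have SDs from 0.0367 to 0.0586, below the median of all genes (0.163), and Apoa4 has 0.631.

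The pooled SDs were 0.0367 for Apoe, 0.0411 for Apoa1, 0.0476 for Apoc3, 0.0555 for Apoa2 and 0.0586 for Apoc1. The remaining genes had pooled SDs of 0.135 for Mttp, 0.144 for Apob, 0.226 for Apoc2 and 0.246 for Apoa5, against a median of 0.163 over all 8338 genes. A small spread is common to the brightest signals, since 58 genes with a mean of at least 15 had a median pooled SD of 0.0598. The deposited values carry no mark of saturation, so how far differences are compressed at this brightness was not tested. In the CKO vehicle against WT vehicle comparison 2 of these 58 genes were called (3.45%), Gstm1, a glutathione transferase, with a rise of 0.58 ± 0.08 (SE) and Tdo2, tryptophan dioxygenase, with a rise of 0.34 ± 0.07 (adjusted p = 0.00305 and 0.0182, limma). Tdo2 ranged from 14.72 to 15.21 over all livers. Apoa1, Apoa2 and Apoe were brighter, from 15.86 to 16.39, and the highest signal on an array was between 16.69 and 17.01.

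The comparison of CKO vehicle with WT vehicle livers asks what loss of hepatocyte Keap1 does without the drug. Of the 10 genes 0 were called, where 6.51% of the 8338 genes tested were called (limma, Benjamini-Hochberg adjusted p under 0.05, two-sided). Apoa5 was lower by 0.64 ± 0.18 (SE) log2 units in CKO livers, with a 95% interval from -1.05 to -0.23 and an adjusted p of 0.0685. Without CKO vehicle replicate 4, the liver with the highest Apoa5 of its group, the difference was -0.85 and passed (adjusted p = 0.0181). Leaving out the lowest liver instead, CKO vehicle replicate 3, gave -0.50 (adjusted p = 0.215). RNA came from whole liver, so fewer hepatocytes and less RNA per hepatocyte cannot be told apart in any of these values.

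In the same comparison Apoa4 differed by -0.54 ± 0.46 log2 units (adjusted p = 0.53), Apoc2 by -0.15 ± 0.17 (0.655), Mttp by -0.12 ± 0.11 (0.577) and Apoa1 by -0.11 ± 0.06 (0.308), adjusted p-values from limma in parentheses. With 1 array left out the Apoa4 difference ranged from -0.99, without WT vehicle replicate 1, to -0.26, without WT vehicle replicate 2. That of Apoc2 ranged from -0.26 to -0.02 without the same livers, and that of Mttp from -0.19 to -0.03 without CKO vehicle replicates 4 and 5. The other 5 genes differed by -0.05 to -0.0027. All 10 values lay below 0 as fitted, and several changed sign under alternatives, among them Apoc1, Apoc3 and Apoe when arrays were centred on their medians and Apob with the mean of its probe sets. The median difference was -0.08 over the 10 genes and -0.0056 over all genes tested. For 6 of the 10, Apoa1, Apoa2, Apob, Apoc1, Apoc3 and Apoe, the 95% interval lay within 1.25-fold in either direction. By the probe set that stands for each gene, groups were apart for 0 of the 10 genes, against 26.3% of all genes tested. They were apart for 1 other Apoa1 probe set (-0.14) and for the second Mttp probe set (-0.14), neither of them called. The share of all probe sets with groups apart was not counted.

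**Figure D3:**
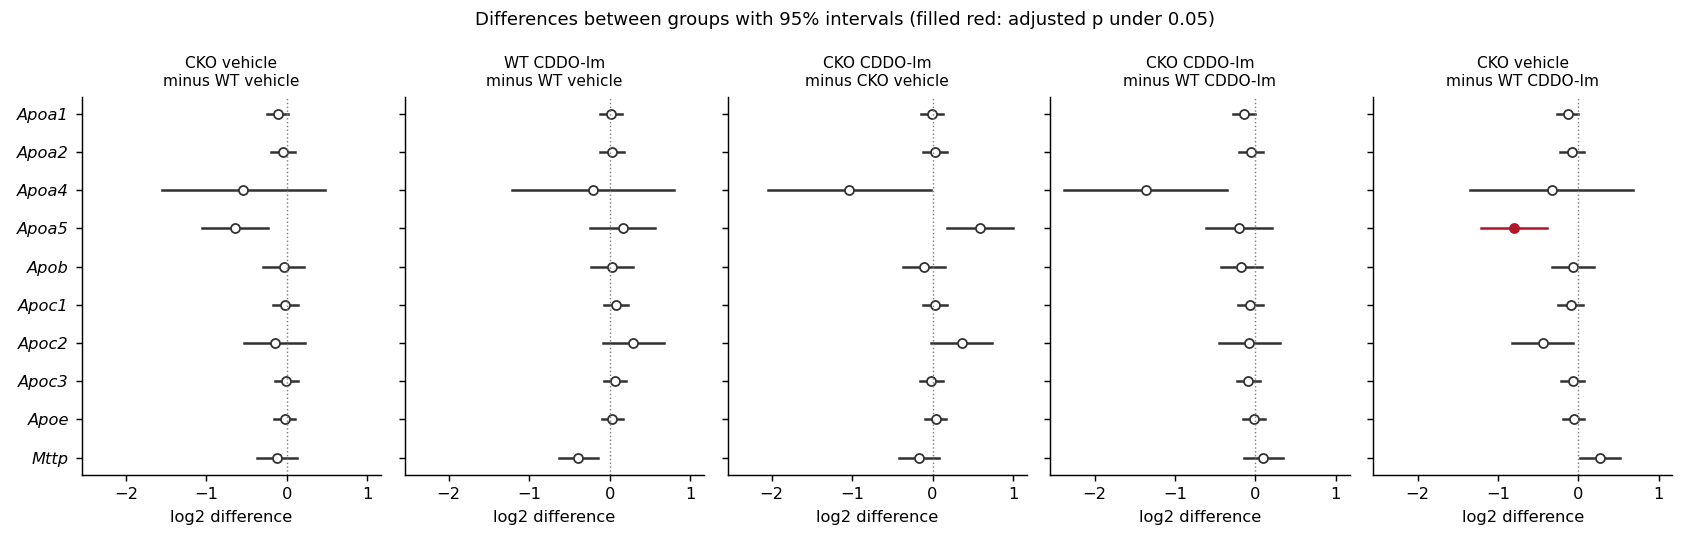
Differences between groups for the 10 genes (x axis, log2 units) in 5 comparisons, with 95% intervals from limma as lines and filled red symbols for an adjusted p under 0.05. Only Apoa5 in the comparison of CKO vehicle with WT CDDO-Im is filled, and the Apoa4 intervals are the widest.

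CDDO-Im in WT livers, the pharmacologic arm, was likewise without a called gene, 0 of 10, where 3.65% of genes tested were called. Mttp came nearest, lower by 0.39 ± 0.11 (SE) log2 units after CDDO-Im with a 95% interval from -0.63 to -0.14 and an adjusted p of 0.0861 in limma. It was also the 1 gene of the 10 whose groups were apart, against 23.3% of all genes. Apoc2 differed by 0.29 ± 0.17 (adjusted p = 0.385), Apoa4 by -0.21 ± 0.46 (0.859) and Apoa5 by 0.16 ± 0.18 (0.686). With 1 array left out, Apoc2 ranged from 0.13, without WT CDDO-Im replicate 4, to 0.46, without WT CDDO-Im replicate 2. Apoa4 changed sign, from -0.66 without WT vehicle replicate 1 to 0.07 without WT vehicle replicate 2. Apoa5 ranged from 0.04, without WT vehicle replicate 3, to 0.26, without WT CDDO-Im replicate 4. The other 6 genes differed by 0.02 to 0.08, and for those 6, Apoa1, Apoa2, Apob, Apoc1, Apoc3 and Apoe, the 95% interval lay within 1.25-fold. The median size of difference, regardless of sign, was 0.07 log2 units over the 10 genes and 0.14 over all genes tested.

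The second Mttp probe set was tested in a fit over all 14684 probe sets above background, of which 3.88% were called. Its signal was 12.28, 12.41 and 12.33 in WT vehicle and 11.99, 12.02 and 12.04 in WT CDDO-Im livers, without overlap. It fell by 0.32 ± 0.07 (SE) log2 units after CDDO-Im (adjusted p = 0.0355, limma) and was the 1 probe set of 16 called in that comparison. The first Mttp probe set, which stands for the gene above, differed by -0.39 in the same fit with an adjusted p of 0.0883. With the mean of both probe sets Mttp fell by 0.36 (adjusted p = 0.04). Of the 16 probe sets, none other was called than this one and the Apoa5 probe set in CKO vehicle against WT CDDO-Im livers, where 3.6% of all probe sets were called. Elsewhere 0 of 16 were called, against 6.03% in CKO vehicle against WT vehicle, 0% in CKO livers given CDDO-Im, 1.46% between genotypes under CDDO-Im, 0.327% in the interaction, 9.31% in the genotype average and 2.36% in the treatment average. The call of the second Mttp probe set was lost in 8 of the 12 fits that each left out 1 array, with the highest adjusted p (0.103) without WT vehicle replicate 2. In CKO livers the second probe set was 12.19, 12.24 and 12.16 with vehicle and 12.004, 12.12 and 12.20 with CDDO-Im, and those groups overlapped.

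**Figure D4:**
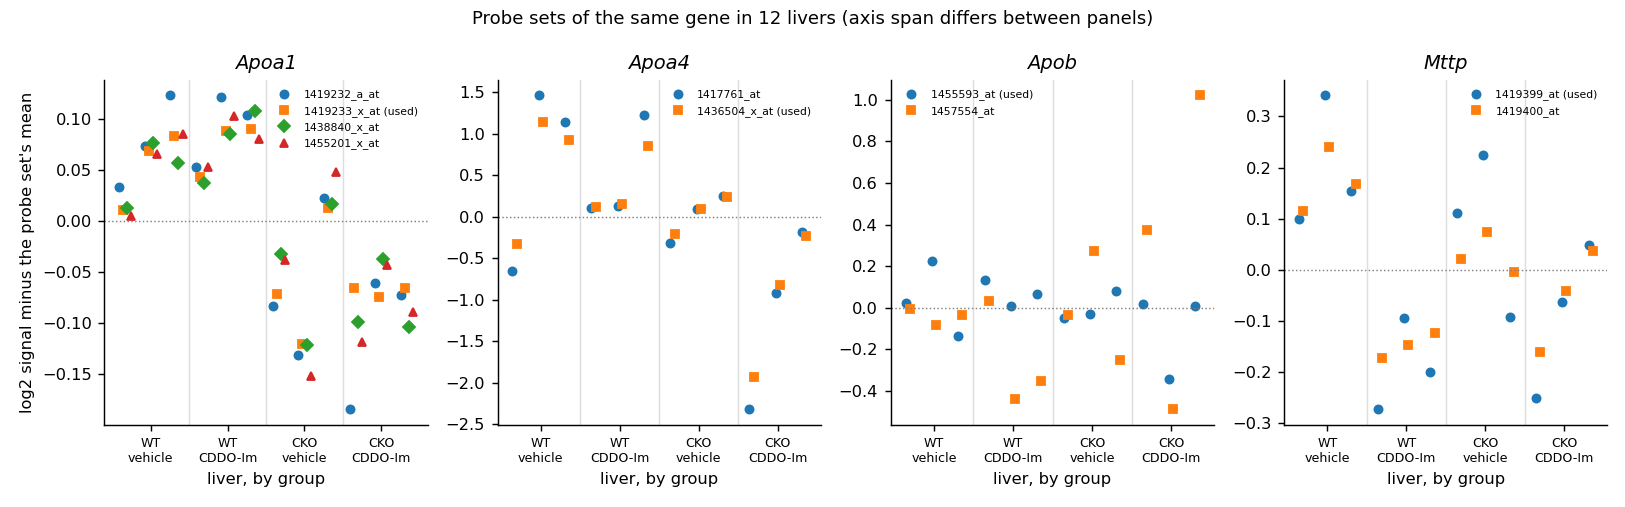
Log2 signal minus the probe set's own mean (y axis) for every probe set of Apoa1, Apoa4, Apob and Mttp in 12 livers ordered by group (x axis); the axis span differs between panels. Probe sets of Apoa1, of Apoa4 and of Mttp take a similar course over the groups, while the second Apob probe set is high in 1 CKO CDDO-Im liver where the first is not.

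All 4 Apoa1 probe sets were lower in CKO than in WT livers given CDDO-Im, by 0.14 to 0.20 log2 units, without a call. For Apoa4, the second probe set had signals of 12.73, 14.83 and 14.52 under vehicle and 13.48, 13.50 and 14.60 under CDDO-Im in WT livers. In CKO livers the corresponding values were 13.06, 13.47 and 13.62 and then 11.06, 12.45 and 13.19. The same livers were low or high in both Apoa4 probe sets. The second Apob probe set ranged from 9.56 to 11.07, with its highest value in a CKO CDDO-Im liver in which the first was 15.10.

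CDDO-Im given to CKO livers asks whether the drug acts where Keap1 is already gone. Of the 10 genes 0 were called, and of all 8338 genes tested 0 were called as well (0%), although 790 had an unadjusted p under 0.05 in limma. Apoa4 was lower by 1.03 ± 0.46 (SE) log2 units after CDDO-Im (adjusted p = 0.523), with a 95% interval from -2.05 to -0.02. Without CKO CDDO-Im replicate 2, its lowest liver, that difference was -0.56. Apoa5 was higher by 0.59 ± 0.18 (adjusted p = 0.425) and Apoc2 by 0.36 ± 0.17 (adjusted p = 0.545), and for Apoa5 the CKO CDDO-Im livers overlapped both WT groups. Groups were apart for 2 of the 10 genes, Apoa4 and Apoc2, against 14.6% of all genes. By the second Apoa4 probe set the groups overlapped. It differed by -1.15 in the fit to every probe set, with a 95% interval from -2.53 to 0.23 (adjusted p = 0.646, limma). The 95% interval lay within 1.25-fold for Apoa1, Apoa2, Apoc1, Apoc3 and Apoe, and Mttp differed by -0.17 ± 0.11 (adjusted p = 0.668) and Apob by -0.10 ± 0.12 (0.82). Mttp ranged from -0.26 to -0.09 without CKO vehicle replicate 5 and CKO CDDO-Im replicate 2, and Apob from -0.17 to 0.01 without CKO CDDO-Im replicates 2 and 3.

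Between CKO and WT livers that both received CDDO-Im, 0 of 10 genes were called, where 1.54% of genes tested were. Apoa4 was lower in CKO livers by 1.37 ± 0.46 (SE) log2 units (95% interval -2.38 to -0.35, adjusted p = 0.173), and Apoa1 by 0.14 ± 0.06 (adjusted p = 0.275). Both had groups that were apart, 2 of the 10 genes, against 22.7% of all genes. For Apoa4 the difference was -0.90 without CKO CDDO-Im replicate 2. Apoa5, which differed by -0.64 between the genotypes under vehicle, differed by -0.21 ± 0.18 here (adjusted p = 0.61), and by -0.11 without CKO CDDO-Im replicate 3. The interaction of genotype and CDDO-Im tests such changes of effect, and in it 0 of the 10 genes were called, where 0.276% of genes tested were. The interaction estimate was 0.43 ± 0.26 for Apoa5 (adjusted p = 0.617, the lowest of the 10), -0.83 ± 0.65 for Apoa4 (0.706) and 0.22 ± 0.16 for Mttp (0.68). The Apoa4 estimate was -0.38 without WT vehicle replicate 1 and -0.36 without CKO CDDO-Im replicate 2, and that of Mttp was 0.13 without CKO vehicle replicate 5. For Apoa5 the 95% interval of the interaction ran from -0.15 to 1.01.

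The study's stated comparison, genetic against pharmacologic activation, sets CKO vehicle against WT CDDO-Im livers, which share no samples. Of the 10 genes 1 was called, where 4.29% of all genes tested were called and 1.87% were called as lower in CKO vehicle livers. Apoa5 fell by 0.80 ± 0.18 (SE) log2 units, a 1.74-fold lower signal in CKO vehicle livers, with a 95% interval from -1.21 to -0.39 (adjusted p = 0.0399, limma). Its signals were 14.12 ± 0.36 (SD, n = 3) in CKO vehicle and 14.92 ± 0.17 in WT CDDO-Im livers, and the groups did not overlap. The call was lost in 8 of the 12 fits that each left out 1 array. The adjusted p was 0.0518 without WT vehicle replicate 1, 0.107, 0.112 and 0.0567 without WT CDDO-Im replicates 2, 3 and 4, and 0.132 and 0.0879 without CKO vehicle replicates 3 and 5. It was 0.0501 and 0.0579 without CKO CDDO-Im replicates 3 and 4, and the difference stayed between -1.01 and -0.66 in all 12 fits.

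Of the other genes in that comparison, Mttp differed by 0.27 ± 0.11 (SE) log2 units (adjusted p = 0.181), higher in CKO vehicle livers, and Apoc2 by -0.44 ± 0.17 (0.159). Apoa1 differed by -0.13 ± 0.06 (0.222), Apoa2 by -0.08 ± 0.07 (0.504) and Apoa4 by -0.33 ± 0.46 (0.717). Without WT CDDO-Im replicate 4 the difference was -0.28 for Apoc2 and -0.10 for Apoa4. Apob, Apoc1, Apoc3 and Apoe differed by -0.10 to -0.06. Groups were apart for 4 of the 10 genes, Apoa1, Apoa2, Apoa5 and Mttp, against 27.8% of all genes.

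Averaging over treatments compares 6 CKO with 6 WT livers, and averaging over genotypes compares 6 CDDO-Im with 6 vehicle livers. In the genotype average 0 of 10 genes were called, where 10.6% of genes tested were. Apoa5 differed by -0.42 ± 0.13 (SE) log2 units (adjusted p = 0.0674), Apoa1 by -0.13 ± 0.04 (0.087) and Apoa4 by -0.95 ± 0.32 (0.0887). For Apoa4 the difference passed without WT vehicle replicate 1, its lowest liver among the WT mice, at -1.18 (adjusted p = 0.0367), and shrank to -0.72 without CKO CDDO-Im replicate 2. Apoa5 passed without CKO vehicle replicate 4, at -0.53 (adjusted p = 0.0176), and shrank to -0.36 without CKO vehicle replicate 3. For Apoa1 the difference passed with no filter on low signal (adjusted p = 0.032) and with a prior variance that follows signal (0.0206). In the fit to every probe set, the 4 Apoa1 probe sets had adjusted p-values from 0.0568 to 0.124 (limma). All 10 differences were below 0 as fitted, although several changed sign under alternatives, among them Mttp (-0.0090) with quantile normalization or median centring and Apob with the mean of its probe sets.

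In the treatment average 0 of 10 genes were called, where 2.46% of genes tested were. Mttp differed by -0.28 ± 0.08 (SE) log2 units (adjusted p = 0.0845), Apoa5 by 0.38 ± 0.13 (0.152), Apoc2 by 0.33 ± 0.12 (0.172) and Apoa4 by -0.62 ± 0.32 (0.326), or -0.39 without CKO CDDO-Im replicate 2. The remaining 6 genes differed by -0.04 to 0.06, and each of their 95% intervals lay within 1.25-fold.

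Genes that act on the same particles were counted by list. Beside each count stands the share of all 8338 genes called in that comparison, and a list's share near it is no result about the list. In comparisons of genotype or treatment alone, fitting the replicate number as a block ended every list gene's call except those of Angptl8 and Cebpb. Of 8 other apolipoprotein genes tested, 0 rose and 1 fell in CKO vehicle against WT vehicle livers (6.51% of all genes), with a median difference of -0.15. Apon, the gene of apolipoprotein N, fell by 0.46 ± 0.12 (SE) log2 units (adjusted p = 0.0466, limma), a call lost in 11 of 12 fits without 1 array, where the highest adjusted p was 0.118 without CKO vehicle replicate 4, and also when every probe set was tested (0.0501), with no filter (0.126), quantile normalization (0.0711), median centring (0.0685) and only the 2 groups compared (0.159). After CDDO-Im in WT livers 0 of the 8 were called (3.65%). Between CKO and WT livers given CDDO-Im 1 of the 8 was called (1.54%). Apom, the HDL carrier of sphingosine 1-phosphate, fell by 0.43 ± 0.09 (adjusted p = 0.0456), a call lost in 11 of 12 fits with the highest adjusted p of 0.138 without CKO CDDO-Im replicate 3, and also lost with the mean of probe sets, no filter, either rescaling and only the 2 groups compared (0.0677 to 0.112). Of the 4 genes of apolipoprotein B mRNA editing, among them the deaminase gene Apobec1, 0 were called in any of the 4 comparisons that differ in genotype or treatment alone, where 0% to 6.51% of all genes were called.

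Of 23 genes of VLDL assembly and secretion tested, 0 rose and 1 fell in CKO vehicle against WT vehicle livers (6.51% of all genes). Sar1b, a GTPase of the coat that carries lipoproteins out of the endoplasmic reticulum, fell by 0.33 ± 0.08 (SE) log2 units (adjusted p = 0.0381, limma), a call lost in 10 of 12 fits with the highest adjusted p of 0.126 without CKO vehicle replicate 3, and also with no filter, quantile normalization, median centring and only the 2 groups compared (0.0631 to 0.145). In WT livers given CDDO-Im 1 rose and 0 fell (3.65%). Mia3, a receptor for export of bulky cargo, rose by 0.45 ± 0.10 (adjusted p = 0.0411), also lost in 10 of 12 fits, with the highest adjusted p of 0.131 without WT CDDO-Im replicate 4, and with no filter (0.109). The median difference of the list was -0.04 and -0.05 in the 2 comparisons, against -0.0056 and -0.02 over all genes tested.

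Of 8 genes of lipoprotein receptors and uptake tested, 1 rose and 1 fell in CKO vehicle against WT vehicle livers, with a median difference of -0.29 (6.51% of all genes called), and 0 were called after CDDO-Im in WT livers (3.65%). Cd36, which takes up fatty acids and modified lipoproteins, had signals of 7.48, 9.45 and 7.69 under vehicle and 9.00, 8.78 and 8.64 under CDDO-Im in WT livers. CKO livers, in the same order of treatment, gave 10.96, 11.16 and 10.78 and then 11.18, 11.39 and 11.19. Every CKO liver lay above every WT liver. The rise was 2.76 ± 0.41 (SE) log2 units under vehicle (adjusted p = 0.00374, limma), a 6.76-fold higher signal that kept its call in all 12 fits without 1 array and lost it with only the 2 groups compared (0.0594). It was 2.44 ± 0.41 under CDDO-Im (adjusted p = 0.0201), where the call was lost in 6 of 12 fits, with the highest adjusted p of 0.0846 without WT CDDO-Im replicate 3, and with no filter (0.0931). Lrp1, a receptor for remnants carrying Apoe, fell by 0.48 ± 0.12 (adjusted p = 0.0337), lost in 6 of 12 fits with the highest adjusted p of 0.112 without WT vehicle replicate 1. That call was also lost with the mean of its probe sets (-0.29, adjusted p = 0.506), no filter (0.0979), median centring (0.0577) and only the 2 groups compared (0.0843). Under CDDO-Im Lsr, the lipolysis-stimulated receptor, was lower in CKO livers by 0.88 ± 0.18 (adjusted p = 0.0408), lost in 9 of 12 fits with the highest adjusted p of 0.118 without WT CDDO-Im replicate 3, and with the mean of probe sets (0.0555), no filter (0.155) and quantile normalization (0.0585).

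**Figure D5:**
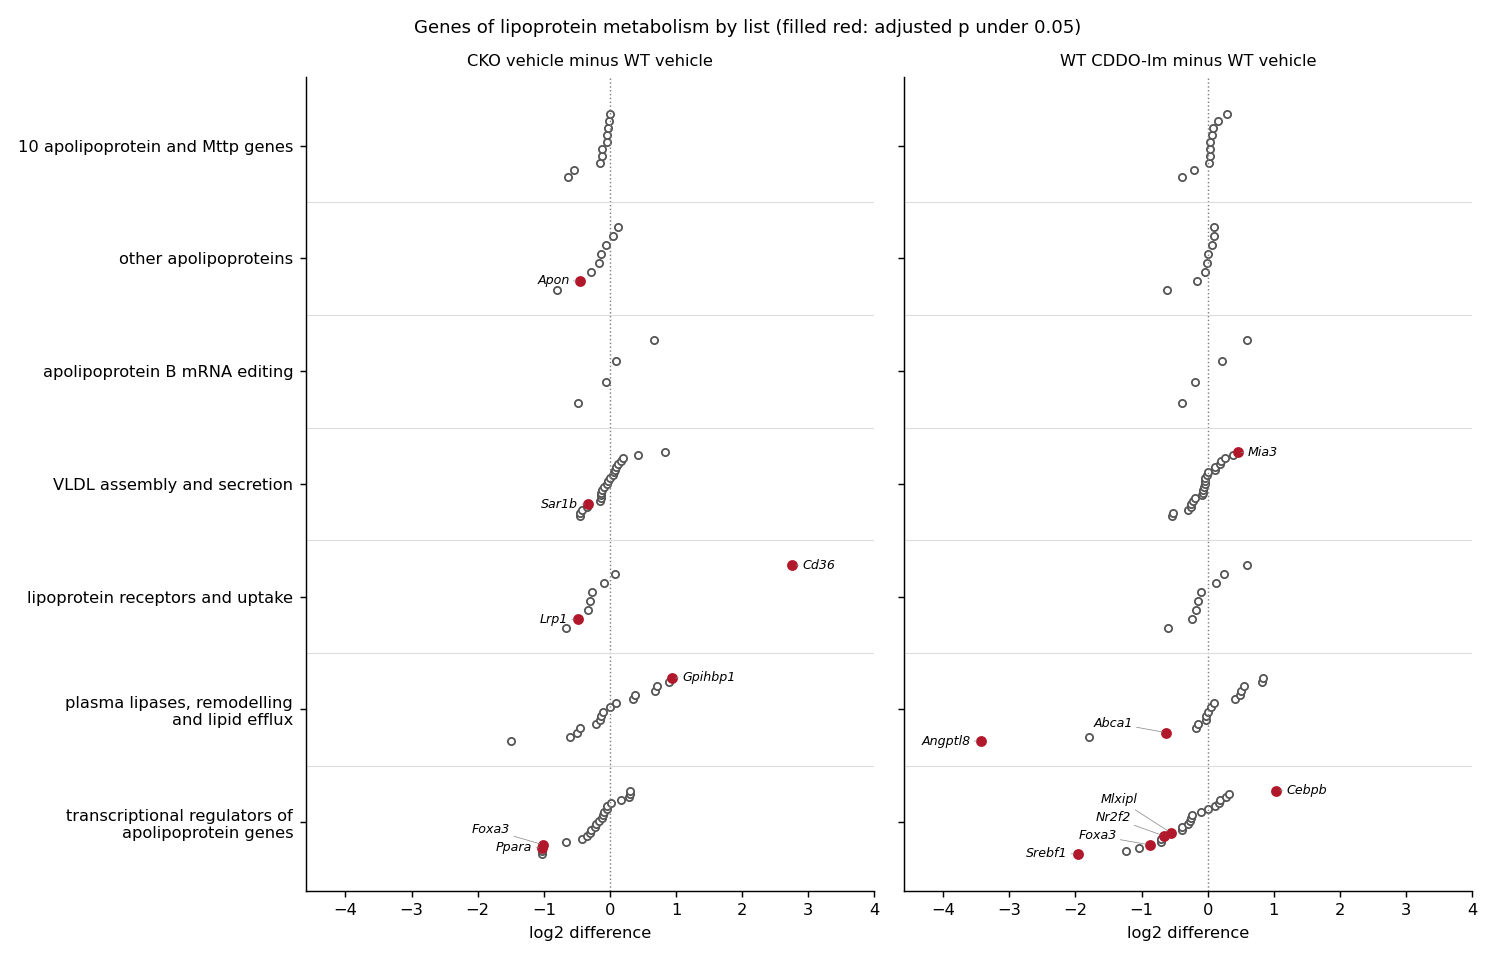
Log2 differences (x axis) of the 10 lipoprotein genes and of 6 lists of related genes (rows), for CKO vehicle against WT vehicle (left) and WT CDDO-Im against WT vehicle (right), with 1 point per gene tested and filled red symbols for an adjusted p under 0.05. The 10 genes hold no filled symbol in either panel, while Cd36 stands at 2.76 on the left and Angptl8 at -3.43 on the right.

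Of 16 genes of plasma lipases, remodelling and lipid efflux tested, 1 rose and 0 fell in CKO vehicle against WT vehicle livers (6.51% of all genes), with a median difference of -0.05. Gpihbp1, which anchors lipoprotein lipase on capillary endothelium, rose by 0.94 ± 0.16 (SE) log2 units (adjusted p = 0.00793, limma) and kept its call in all 12 fits without 1 array. That call was lost with the replicate number as a block (adjusted p = 0.104). Markers of other liver cells were read beside Gpihbp1 and Cd36 in that comparison. Of 9 macrophage and Kupffer cell markers tested 1 rose, Marco, a scavenger receptor, by 2.304 ± 0.46 (adjusted p = 0.0151), and the list's median difference was 0.25. Their summed log2 signal, Cd68 and Timd4 being not above background, ranged from 13.01 to 14.0 under vehicle in WT and from 13.4 to 14.0 in CKO livers. Of 7 endothelial markers tested 1 rose, Lyve1, a hyaluronan receptor, by 2.24 ± 0.46 (adjusted p = 0.0176), with a median of -0.04 and Pecam1 not above background. The endothelial sum ranged from 11.6 to 11.8 in WT and from 11.6 to 11.7 in CKO livers under vehicle. The part of these markers in the Gpihbp1 and Cd36 values was not tested. After CDDO-Im in WT livers 0 rose and 2 fell (3.65%), and Lyve1 rose there by 2.57 ± 0.46 (adjusted p = 0.015). Angptl8, a feeding-induced inhibitor of the lipase, had signals of 9.58, 11.07 and 11.33 with vehicle and 7.66, 6.65 and 7.38 with CDDO-Im, and fell by 3.43 ± 0.68 (adjusted p = 0.0241), lost in 4 of 12 fits with the highest adjusted p of 0.0853 without WT CDDO-Im replicate 4, and with no filter (0.114) and only the 2 groups compared (0.0549). Abca1, the exporter that lipidates Apoa1 to form HDL, was 13.05, 12.98 and 12.93 with vehicle and 12.34, 12.32 and 12.41 with CDDO-Im. It fell by 0.63 ± 0.08 (adjusted p = 0.00288) and kept its call in all 12 fits without 1 array, but lost it with the replicate block (0.0512). Between genotypes under CDDO-Im Abca1 was higher in CKO livers by 0.41 ± 0.08 (adjusted p = 0.0347), lost in 6 of 12 fits with the highest adjusted p of 0.135 without WT CDDO-Im replicate 3, and with the mean of probe sets (0.0767), no filter (0.0675) and only the 2 groups compared (0.0855).

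Of 22 transcriptional regulators of apolipoprotein genes tested, 0 rose and 2 fell in CKO vehicle against WT vehicle livers (6.51% of all genes), with a median difference of -0.18. Ppara, the fatty acid sensing receptor, fell by 1.02 ± 0.26 (SE) log2 units (adjusted p = 0.0434, limma), lost in 9 of 12 fits with the highest adjusted p of 0.137 without WT vehicle replicate 1, and with the mean of probe sets (0.106), no filter (0.156) and only the 2 groups compared (0.128). Foxa3, a forkhead factor of hepatocytes, fell by 1.01 ± 0.20 (adjusted p = 0.0151), lost without CKO vehicle replicate 5 (0.054), with no filter (0.0695) and with only the 2 groups compared (0.0515). After CDDO-Im in WT livers 1 rose and 4 fell (3.65%), with a median difference of -0.28. Cebpb rose by 1.04 ± 0.23 (adjusted p = 0.037) and lost its call in 8 of 12 fits, with the highest adjusted p of 0.129 without WT CDDO-Im replicate 4. Srebf1, the regulator of fatty acid synthesis, fell by 1.97 ± 0.40 (adjusted p = 0.0259), lost in 5 of 12 fits with the highest adjusted p of 0.0957 without the same array, and Foxa3 fell by 0.88 ± 0.20 (0.0397), lost in 9 with the highest of 0.108 without WT vehicle replicate 3. The other 2 that fell, Nr2f2 and Mlxipl, lay outside the rule for naming and are named after their values were seen. With no filter and with only the 2 groups compared, all 5 of these calls after CDDO-Im were lost (adjusted p = 0.0589 to 0.146). Hnf4a, the central activator of apolipoprotein genes in hepatocytes, was not called in either comparison, with differences of 0.31 ± 0.09 (adjusted p = 0.0695) and 0.18 ± 0.09 (0.296). In CKO livers given CDDO-Im against vehicle 0 genes of these lists were called, as were 0% of all genes.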

How the data were processed

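For 45101 probe sets on 12 arrays of liver RNA, the authors deposited log2 values. The submitters' processing notes name GCRMA 2.12.1 and R 2.7.0. GCRMA corrects background from probe sequence, normalizes the arrays and summarises each probe set, with settings that the sources used here do not state. Gene names come from GEO's annotation of the array, in which 34945 name 1 gene, 932 several and 9160 none, and 64 are controls. The brightest probe set stood for each of 18193 genes, and genes entered the test if they were above a log2 value of 5 on 3 or more arrays.

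Using limma 3.58.1 (R 4.3.3), 4 group means were estimated jointly from the 12 arrays, and differences were called at a two-sided Benjamini-Hochberg adjusted p under 0.05 over 8338 genes. The same model was fitted to every non-control probe set above the filter. Errors of differences are limma's SE, and errors of means are SDs over 3 mice, whose number limits the precision. The 10 genes, the lists of related genes and the alternatives were chosen with earlier results of these data known. All 10 genes were named in every comparison, and from each list up to 2 called genes that rose most and 2 that fell most in each comparison of genotype or treatment alone. A rule to name genes with patterns like a called gene found none to apply to, since none of the 10 was called in those comparisons. The labels do not say what the replicate numbers mean, and they were treated as numbers of different mice. The 12 same-numbered pairs correlated from -0.17 to 0.15 in their deviations from group means, with 3 over 0.1. Their median was 0.060, against 0.0069 for the other pairs, and they were not used as pairs in the reported fits. Promoter windows and gene neighbours are RefSeq's, build GRCm38.p6, and symbols of 34741 probe sets matched it by Entrez identifier. The alternatives were the mean of a gene's probe sets, every probe set, no filter and a filter at a log2 value of 8, quantile normalization, median centring, a prior variance that follows signal, only the 2 groups compared, the replicate block and leaving out each array in turn.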

Additional observations from a re-analysis of the deposited data

How the results depend on the processing

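The number of the 10 genes called moved as follows. In CKO vehicle against WT vehicle livers it was 0 and became 0 to 1 with 1 array left out. In WT livers given CDDO-Im it was 0 and became 1 with the mean of probe sets. In the genotype average it was 0 and became 1 with no filter, with the prior variance following signal and with the replicate block, and 0 to 1 with 1 array left out. In CKO vehicle against WT CDDO-Im it was 1 and became 0 with no filter, with only the 2 groups compared and with the replicate block, and 0 to 1 with 1 array left out, where Apoa5 had adjusted p-values of 0.137, 0.109 and 0.138 in the first 3. Of the 16 probe sets, 0 to 1 were called with 1 array left out in CKO vehicle against WT vehicle (0 as reported). In WT CDDO-Im against WT vehicle 1 was called, 0 with no filter, quantile normalization or the replicate block, and 0 to 1 with 1 array left out. In the genotype average 0 were called, 1 with no filter or the filter at 8, 4 with the prior variance following signal, 2 with the replicate block and 0 to 2 with 1 array left out. In the treatment average 0 were called and 1 with the filter at 8 or the prior variance following signal. In CKO vehicle against WT CDDO-Im 1 was called, 0 with no filter or the replicate block and 0 to 1 with 1 array left out. The shares of all probe sets called under these alternatives are not given here. Nor are those of all genes with the mean of probe sets, the filter at 8 or the prior variance following signal. The counts of members under those settings are therefore no result about the 10 genes. Rxra in the genotype average turned to 0.012 (-0.18 as reported) with the mean of probe sets. With the replicate block Apoa4 passed in the genotype average at -1.47 (adjusted p = 0.0305), and same-numbered arrays correlated best with each other for 3 of 12 arrays. Number 1 occurs only in WT vehicle and number 5 only in CKO vehicle livers, so the block fits these 2 arrays exactly. They therefore add nothing to the differences fitted with the block, which are estimated from fewer arrays than the reported ones. Among related genes, the block ended the calls of Cd36 (adjusted p = 0.0765), Gpihbp1 (0.104), Foxa3 (0.0901), Lrp1 (0.323), Sar1b (0.275), Ppara (0.324) and Apon (0.202) in CKO vehicle against WT vehicle, and of Abca1 (0.0512), Mia3 (0.0605), Foxa3 (0.0627), Srebf1 (0.0751), Nr2f2 (0.143) and Mlxipl (0.139) in WT CDDO-Im against WT vehicle. It did so for Apom (0.125), Lsr (0.0938), Cd36 (0.0523) and Abca1 (0.101) between genotypes under CDDO-Im, and for Apom (0.0754), Pemt (0.145), Lrp1 (0.065), Lcat (0.114), Pon3 (0.0865), Lpl (0.124) and A1cf (0.0848) in the genotype average. Over all genes the replicate block gave 55 calls in place of 543 in CKO vehicle against WT vehicle, 114 in place of 304 in WT CDDO-Im against WT vehicle, 2 in place of 0 in CKO CDDO-Im against CKO vehicle, 42 in place of 128 between genotypes under CDDO-Im, 150 in place of 358 in CKO vehicle against WT CDDO-Im, 3 in place of 23 in the interaction and 316 in place of 880 in the genotype average. In the same order of those 7 comparisons, no filter gave 232, 124, 1, 29, 119, 7 and 413 calls, and testing every probe set gave 885, 570, 0, 215, 528, 48 and 1367. Only the 2 groups compared gave 223, 85, 0, 56 and 112 calls in the first 5. In the treatment average 205 calls became 67 with no filter and 347 with every probe set. With 1 array left out, the lowest and highest counts were 275 and 538, 100 and 318, 0 and 1, 32 and 138, 108 and 379, 2 and 30, and 569 and 807 in those 7 comparisons. The cause of these moves was not tested. Values of the 10 genes that were not called changed sign in 72 of 1730 alternative values, between -0.10 and 0.22, with a lowest adjusted p of 0.663, and no called value reversed. Leaving out 6 genes whose deposited value was the same on every array, an alternative chosen after seeing the data, kept all 8 comparisons' counts of called members. The number of arrays, 3 per group, limits what these values can show, and signals carry no mark of saturation.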

Other observations

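With 6 livers a genotype, further genes of lipoprotein handling passed the test in CKO against WT livers averaged over treatments, where 10.6% of all genes were called. They were picked after their values were seen and support nothing about the 10 genes. Among uptake genes Cd36 rose by 2.60, and the receptor genes Lrp1 and Lsr fell by 0.47 and 0.78 on the log2 scale. Among genes of lipase anchoring and remodelling, Gpihbp1 rose by 0.79 and Pon3, an HDL-bound lactonase, by 0.42, while Lcat, which esterifies cholesterol on HDL, fell by 0.28. The HDL-associated Apom fell by 0.36, Apon by 0.49, and Pemt, which makes phosphatidylcholine for VLDL, by 0.36. These 9 calls held in all 12 fits that left out 1 array, whereas those of Lpl (0.69) and A1cf (0.61), a cofactor of apolipoprotein B mRNA editing, were lost in 9 and 10 of them. The Lrp1 call was lost with the mean of its probe sets (adjusted p = 0.142), and the Lpl and A1cf calls with no filter (0.165 and 0.154). The replicate block ended the calls of Apom, Pemt, Lrp1, Lcat, Pon3, Lpl and A1cf (adjusted p = 0.065 to 0.145, limma). Of the transcriptional regulators, Foxa3 and Rxra were also called as lower, and lost their calls in 9 and 6 of the 12 fits.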
